A study of Mus musculus with 8 samples.

Results

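Dio2, Dio3, Slc16a10, Slco1c1, Slc7a5, Slc7a8 and Crym encode proteins that set how much thyroid hormone (TH) a cell takes up, activates, inactivates or holds. They were chosen by symbol, and the 7 rows were read from the count files of the series among 55341 gene symbols. RNA was sequenced from nuclei of cortical GABAergic neurons, the inhibitory neurons of the cortex, with 1 library per mouse. These nuclei carried a fluorescent protein made from a Cre-dependent reporter and were collected with a cell sorter. Mice 9 to 12 (PTU, n = 4) were hypothyroid because their mothers received propylthiouracil, a blocker of TH synthesis, while pregnant. Mice 13 to 16 (PTU+TH, n = 4) had the same exposure and were also injected intraperitoneally with TH, 24 h before the cortex was collected. The PTU mice are described as juvenile. Mice with normal TH are not analysed here, so every comparison is between hypothyroid mice with and without the injection. Age in days, strain, sex, litter, the line of the Cre driver and the form of TH are not given in the sources used here. P-values set a difference between groups against the spread between these mice, which is estimated with information from all tested genes.

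As background, the brain receives mostly thyroxine (T4), the prohormone, and a smaller part of triiodothyronine (T3), which binds the nuclear receptors. Membrane transporters carry both across the blood-brain barrier and into neurons and glia. Dio2 converts T4 to T3, Dio3 inactivates both, and Crym is a cytosolic protein that binds T3. In the cortex Dio2 is known mainly from astrocytes, Slco1c1 from capillary endothelium and astrocytes, and Dio3 from neurons. Slc7a5 and Slc7a8 are amino acid exchangers that also carry TH, and Slc16a10 is a monocarboxylate transporter family member that carries aromatic amino acids and TH.

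Library totals lay between 21762810 and 29084071 counts. The summed level of 5 GABAergic markers, of which Dlx1 was listed at 0, was 1118 to 1227 CPM in PTU and 1041 to 1126 CPM in PTU+TH, where CPM is the count normalised to the scaled depth of its library. Markers of other cell types were present at lower levels and differed between mice of the same group. The 6 excitatory neuron markers summed to 36.2 to 103 CPM in PTU and 44.3 to 117 CPM in PTU+TH, the 10 endothelium markers to 45.0 to 201 and 49.6 to 146 CPM, and the 10 astrocyte markers, of which Gfap was listed at 0, to 305 to 388 and 326 to 585 CPM. PTU mouse 10 had the highest endothelium sum. Y-linked genes had 0 counts in PTU+TH mice 15 and 16 and were counted in the other 6 libraries. The groups were thus not balanced in Y-linked counts, which the main model did not include. A list of 6 TH-responsive genes, chosen with results of these data known and thus no independent evidence, was higher in PTU+TH for 6 of 6 genes (edgeR quasi-likelihood test, adjusted p from 6.59e-07 to 0.0106).

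Of the 7 genes, 5 had enough counts to be tested, and none of the 5 was called different between PTU+TH and PTU. In the edgeR quasi-likelihood test the count of called members was 0 at an adjusted p under 0.05, a threshold that 2.12% of all 17355 tested genes passed, 1.49% higher and 0.634% lower in PTU+TH. It was also 0 at an unadjusted p under 0.05, which 12.8% of all genes passed, and 0 in DESeq2 and in limma voom. In none of the 5 did all 4 libraries of a group lie above all 4 of the other, which held for 8.71% of tested genes. The median log2 fold change was -0.13 over the 5 and -0.01 over all tested genes. In bulk nuclei, fewer cells of a type and less RNA per cell cannot be told apart.

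The transporters that could be tested were Slc7a8, Slc16a10 and Slco1c1. Slc7a8 (chromosome 14, 54722209 to 54781946 in GRCm38) was the most abundant, at 115, 105, 114 and 125 CPM in PTU mice 9, 10, 11 and 12 and at 113, 116, 125 and 133 CPM in PTU+TH mice 13, 14, 15 and 16. Of the PTU+TH values, 3 of 4 lay within the PTU range. Group means were 115 ± 8.27 and 122 ± 9.27 CPM (SD, n = 4 each), with a log2 fold change of 0.09 (SE 0.09, 95% confidence interval -0.11 to 0.28, edgeR adjusted p = 0.791). The interval corresponds to 0.93 to 1.21 times the PTU level. Leaving out mice 15 and 16, the pair without Y-linked counts, turned the log2 fold change to -0.0017.

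Slc16a10 (chromosome 10, 40033532 to 40142258) stood at 19.9, 23.7, 27.6 and 31.0 CPM in PTU mice 9 to 12 and at 27.3, 27.8, 31.9 and 30.1 CPM in PTU+TH mice 13 to 16. The lowest values, in mice 9 and 10, were both in PTU, but mice 11 and 12 lay within the range of PTU+TH. The means were 25.6 ± 4.78 and 29.3 ± 2.14 CPM (SD, n = 4 each), with a log2 fold change of 0.20 (SE 0.13, interval -0.09 to 0.49, edgeR adjusted p = 0.625). Without PTU mouse 9 the log2 fold change was 0.10, and without PTU mouse 12 it was 0.30 (edgeR adjusted p = 0.736 and 0.429).

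Slco1c1 (chromosome 6, 141524368 to 141570177), an organic anion transporter with high affinity for T4, varied most among the 5. It stood at 22.7, 51.2, 19.0 and 8.70 CPM in PTU mice 9 to 12 and at 22.3, 10.1, 35.6 and 12.3 CPM in PTU+TH mice 13 to 16. The highest and the lowest library were both in the PTU group. The means were 25.4 ± 18.2 and 20.1 ± 11.6 CPM (SD, n = 4 each), with a log2 fold change of -0.34 (SE 0.59, interval -1.70 to 1.01, edgeR adjusted p = 0.903). Without PTU mouse 10 the sign turned (0.26, edgeR adjusted p = 0.909).

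Among the deiodinases, Dio2 (chromosome 12, 90724552 to 90738438) was counted in every library. It stood at 7.21, 8.32, 3.32 and 3.06 CPM in PTU mice 9 to 12 and at 5.95, 2.54, 7.81 and 3.0 CPM in PTU+TH mice 13 to 16. Each group held a pair of high and a pair of low libraries, so that the group means of 5.48 ± 2.68 and 4.83 ± 2.5 CPM were close (SD, n = 4 each), with a log2 fold change of -0.19 (SE 0.41, interval -1.11 to 0.72, edgeR adjusted p = 0.926). The sign turned without PTU mouse 10 (0.08) and without PTU+TH mouse 14 (0.02). The body of Dio2 overlaps the start of the lncRNA gene Gm26512 on the other strand and is 98.3% free of other genes.

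Dio3 (chromosome 12, 110279068 to 110281097), a gene of a single exon, was close to the limit of detection. It had 0 counts in all 4 PTU libraries and in PTU+TH mice 14 and 16, and 4 counts in each of PTU+TH mice 13 and 15. These 4 counts correspond to 0.169 and 0.182 CPM, while a count of 0 allows up to 3 counts, or 0.103 to 0.148 CPM depending on the library. Without a filter on low counts edgeR gave Dio3 an unadjusted p of 0.0255 and an adjusted p of 0.399, so that it was not called. The groups overlapped, since 2 of the 4 PTU+TH libraries were at 0 like all of PTU. Its body shares no base with another gene.

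Crym (chromosome 7, 120186380 to 120202111), the T3-binding protein, also fell into pairs. It stood at 7.5, 6.74, 2.47 and 2.27 CPM in PTU mice 9 to 12 and at 5.06, 3.16, 5.86 and 3.47 CPM in PTU+TH mice 13 to 16. The PTU group held both the highest and the lowest pair, and all PTU+TH libraries lay between them. The means were 4.75 ± 2.76 and 4.39 ± 1.29 CPM (SD, n = 4 each), with a log2 fold change of -0.13 (SE 0.39, interval -0.97 to 0.72, edgeR adjusted p = 0.954). The sign turned without PTU mouse 9 (0.19), PTU mouse 10 (0.09) or PTU+TH mouse 14 (0.01).

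**Figure D1:**
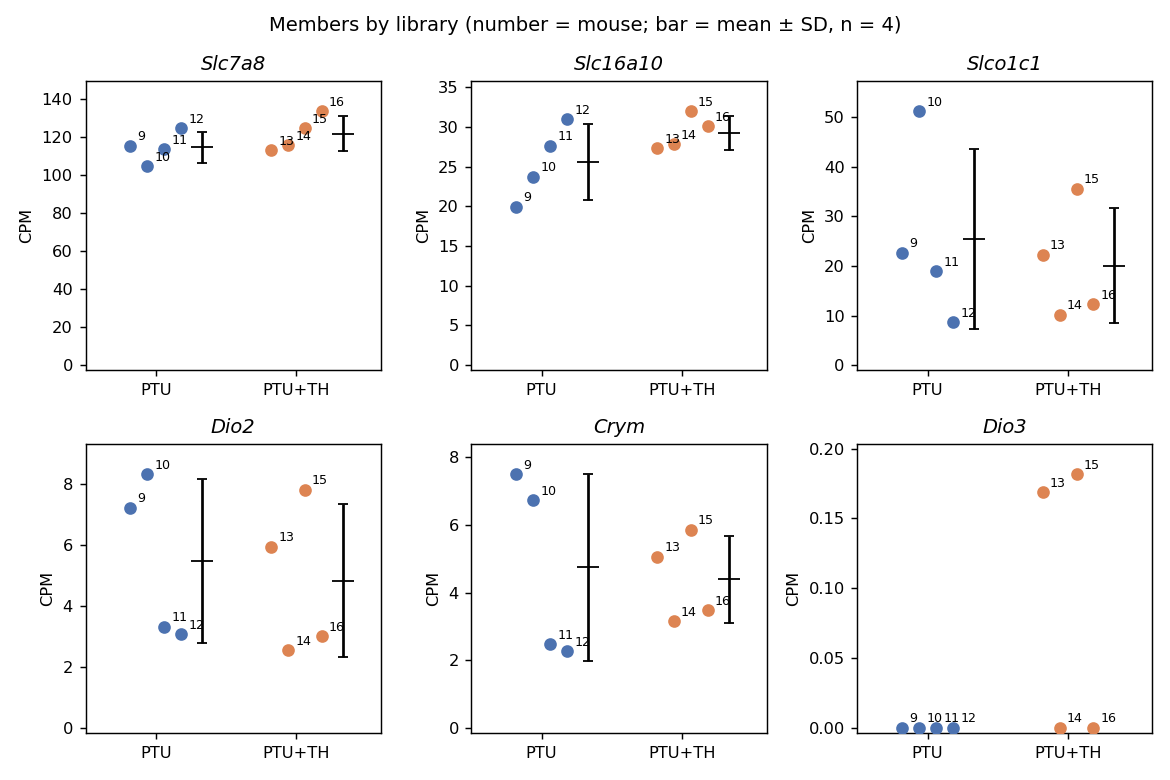
CPM of 6 members in each library, with PTU and PTU+TH on the x axis and CPM on the y axis of each panel, which starts at 0. Points are mice, and bars are the mean ± SD (n = 4), left out for Dio3. Slc7a8 and Slc16a10 vary less than Slco1c1, Dio2 and Crym, which are higher in mice 9, 10, 13 and 15 than in the other 4.

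Slc7a5 (chromosome 8, 121881150 to 121907694) was listed at 0 in all 8 libraries, and its level could not be read from these files. Its whole body lies inside Gm20388, a gene model of 4434882 bases on the other strand (119910841 to 124345722). All 71 protein-coding genes inside Gm20388 were at 0 in every library. Gm20388 itself had 2267 to 3137 counts per library. Across the annotation, 1265 of 1265 protein-coding genes with their whole body inside another gene were at 0, and so were 680 of 680 that share no exon base with the other gene and lie in its introns. Of 11727 protein-coding genes free of any overlap, 21.5% were at 0. A 0 at a nested gene such as Slc7a5, Dlx1 or Gfap therefore says nothing about its expression.

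Slc3a2, the heavy chain with which Slc7a5 and Slc7a8 form their exchangers, lies free of other genes and could be counted. It stood at 101, 99.5, 93.9 and 96.0 CPM in PTU mice 9 to 12 and at 104, 95.9, 98.4 and 94.9 CPM in PTU+TH mice 13 to 16. All 8 libraries lay close together, and the groups overlapped over most of their range (log2 fold change 0.01, SE 0.08, interval -0.16 to 0.18, edgeR adjusted p = 0.984). The sign of so small a value turned in 5 of 20 alternatives, among them scaling by library totals only (-0.0128).

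Levels of different genes were compared per kilobase (kb). Per kb of gene body, the mean in PTU was 1.92 CPM for Slc7a8, 0.55 for Slco1c1, 0.39 for Dio2, 0.30 for Crym and 0.24 for Slc16a10. In PTU+TH the same quantity was 2.04, 0.44, 0.35, 0.28 and 0.27 CPM per kb, in the same order. Slc7a8 was above the other 4 in every library. The ranges of Slco1c1, Dio2, Crym and Slc16a10 over the PTU libraries overlapped. Within libraries, Slco1c1 was above Dio2 in 6 of 8, Dio2 above Crym in 6 of 8 and Crym above Slc16a10 in 4 of 8. Per kb of exon, Slc16a10 moved ahead of Crym and Dio2, with 3.48 CPM in PTU against 22.9 for Slc7a8, 4.90 for Slco1c1, 1.40 for Crym and 0.94 for Dio2.

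The 5 genes fell apart in their spread between mice of the same group. The pooled SD of log2 CPM within groups was 0.94 for Slco1c1, 0.75 for Dio2 and 0.70 for Crym, against 0.21 for Slc16a10 and 0.11 for Slc7a8. Among genes with a mean level within a factor of 2 of its own, the SD of Slco1c1 was at percentile 99.8 of 4401 genes, that of Dio2 at percentile 97.0 of 3315 and that of Crym at percentile 95.3 of 3335. Slc16a10 was at percentile 68.6 of 4598 and Slc7a8 at percentile 26.5 of 3374.

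The start regions of Slco1c1 and Dio2, which varied between mice, and of Slc16a10 and Slc7a8, which varied less, are shown side by side to compare their CG content. Each window covers bases 250 to 61 before the RefSeq start of the gene (GRCm38.p6, 190 bases, 5′ to 3′ on the gene's strand), and capitals mark each CG dinucleotide. Of the 7 genes, 5 matched a promoter in the RefSeq table, and Crym and Slc7a5 did not.
Slco1c1, chr6:141524104-141524293, plus strand: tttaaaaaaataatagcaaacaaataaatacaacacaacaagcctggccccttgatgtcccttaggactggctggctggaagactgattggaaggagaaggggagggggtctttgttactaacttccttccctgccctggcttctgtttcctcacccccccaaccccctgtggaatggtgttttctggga
Dio2, chr12:90739099-90739288, minus strand: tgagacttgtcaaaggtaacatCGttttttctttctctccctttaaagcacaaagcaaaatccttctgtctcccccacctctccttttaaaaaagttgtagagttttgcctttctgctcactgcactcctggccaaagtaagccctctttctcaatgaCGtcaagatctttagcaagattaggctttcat
Slc16a10, chr10:40142315-40142504, minus strand: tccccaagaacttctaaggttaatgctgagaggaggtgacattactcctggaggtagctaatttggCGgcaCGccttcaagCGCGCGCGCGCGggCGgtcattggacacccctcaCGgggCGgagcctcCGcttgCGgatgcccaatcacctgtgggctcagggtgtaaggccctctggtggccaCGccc
Slc7a8, chr14:54781947-54782136, minus strand: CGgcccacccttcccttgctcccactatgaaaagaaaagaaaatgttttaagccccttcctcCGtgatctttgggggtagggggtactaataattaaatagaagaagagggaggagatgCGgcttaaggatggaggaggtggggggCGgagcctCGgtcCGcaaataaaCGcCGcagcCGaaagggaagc

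The window of Slco1c1 held 0 CG dinucleotides and that of Dio2 held 2, while those of Slc7a8 and Slc16a10 held 9 and 14. The median over 32851 promoter windows of the same length was 4. Of all windows, 11.8% held 0 and 38.1% held no more than the 2 of Dio2. That of Dio3 held 19, but it reaches 101 bases past the GENCODE start of the gene. The window of Dio2 ends 661 bases before the gene start of the GENCODE annotation, because RefSeq places the start farther upstream. The motif TGACGTCA, the palindromic cyclic AMP response element, occurred once in the Dio2 window and in 0.7% of all windows. The motif AGGTCA, the half-site bound by TH receptors, was searched on both strands and occurred in 0 of the 5 member windows and in 10.8% of all. A match or its absence in these letters is a description only, and with 4 genes the difference in CG content was not tested.

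Slco1c1, Dio2 and Crym were highest in the same 4 libraries, PTU mice 9 and 10 and PTU+TH mice 13 and 15. The order of Dio2 from high to low was mouse 10, 15, 9, 13, 11, 12, 16 and 14, and that of Slco1c1 differed from it only in its last 3 places. The summed endothelium markers, mural cell markers, excitatory neuron markers and oligodendrocyte precursor markers were also highest in mice 9, 10, 13 and 15. The oligodendrocyte, microglia, striatal projection neuron and GABAergic sums had other sets of highest mice. Slc3a2, whose highest library was 1.11 times its lowest, was also highest in mice 9, 10, 13 and 15. In the order of the mice, the endothelium sum was 75.8, 201, 61.5 and 45.0 CPM in PTU and 108, 49.6, 146 and 65.1 CPM in PTU+TH. The excitatory neuron sum was 103, 98.8, 53.7 and 36.2 CPM in PTU and 93.1, 44.3, 117 and 59.9 CPM in PTU+TH. The 4 highest libraries of the astrocyte sum were mice 10, 13, 15 and 16, a sum to which Slc1a2 and Slc4a4 gave most of the CPM. In PTU, Slc4a4 was lower in mice 9 and 10 (112 and 122 CPM) than in mice 11 and 12 (171 and 166 CPM). It stayed in the astrocyte list used for the slopes below. In the mean log2 CPM of the markers, which weights the genes equally, mice 9, 10, 13 and 15 were highest on the astrocyte list as well as on the endothelium and excitatory lists. Slc16a10 and Slc7a8 were highest in mice 12, 14, 15 and 16. Whether nuclei of these cell types were the source of the counts was not tested.

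**Figure D2:**
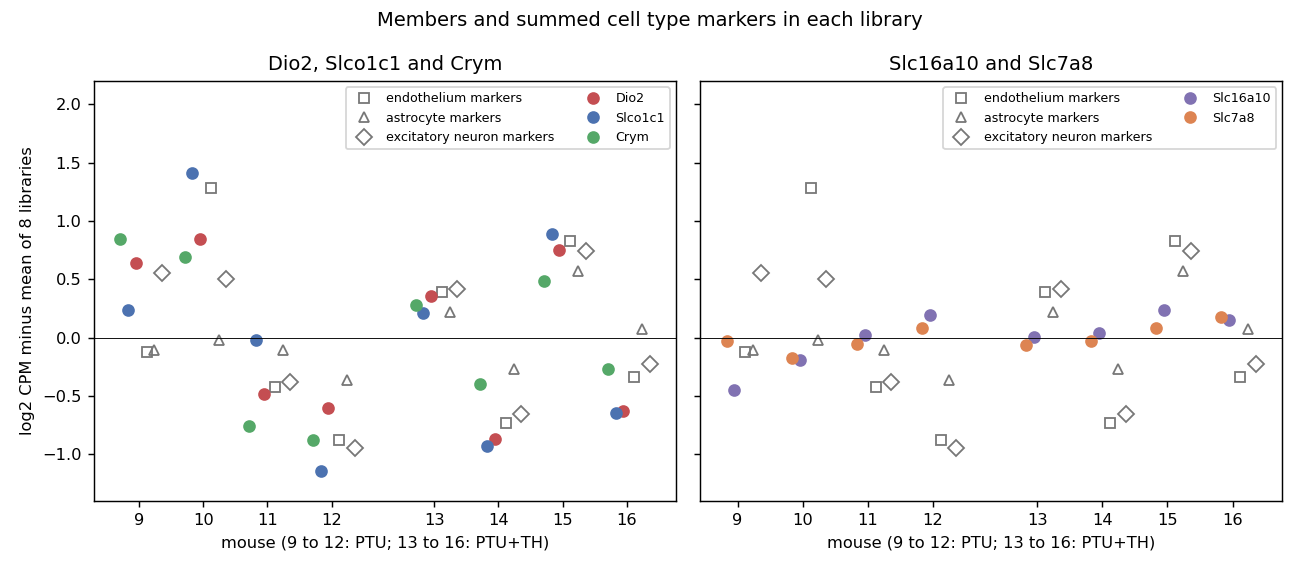
Log2 CPM of members (filled circles) and of summed markers of 3 cell types (open symbols) in each mouse, each minus its mean over the 8 libraries. Slco1c1, Dio2 and Crym lie above 0 in mice 9, 10, 13 and 15 and at or below 0 in the other 4, while Slc16a10 and Slc7a8 stay closer to 0.

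The relation to marker level was tested in the same edgeR model, with treatment kept as a term and the mean log2 CPM of a marker list added. This test was chosen after the values were seen, and the slopes are in log2 units of the gene per log2 unit of the marker mean. Slco1c1 had a slope of 1.09 (SE 0.10) on the endothelium markers (edgeR adjusted p = 4.94e-05, over all genes). A slope on this list was called for 0.956% of all genes, and a positive slope for 0.951%. The slope of Slco1c1 was called in 8 of 8 fits that left out a library and in all 14 alternatives, with values from 1.01 to 1.27. Its slope on the astrocyte markers was 1.71 (edgeR adjusted p = 0.0247), which was lost without PTU+TH mouse 15 (0.177), without mouse 16 (0.0795), without a filter (0.112) and without both of these mice (0.312). The slope itself was 1.42 to 1.99 over the 14 alternatives. Its slope on the excitatory neuron markers was 1.37 (SE 0.30, edgeR adjusted p = 0.0736), and was called with library totals only (0.0193), without PTU mouse 9 (0.000531) and without PTU mouse 10 (0.022).

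Dio2 had slopes of 1.53 (SE 0.21) on the astrocyte markers, 1.13 (SE 0.20) on the excitatory neuron markers and 0.81 (SE 0.17) on the endothelium markers. Their edgeR adjusted p-values were 0.00542, 0.0299 and 0.0344, and slopes on the astrocyte and excitatory lists were called for 0.628% and 0.72% of all genes, positive ones for 0.628% and 0.697%. The astrocyte slope was called in 7 of 8 fits with a library left out, the exception being PTU+TH mouse 15 (0.0524), and was not called without both mice 15 and 16 (0.121). The excitatory slope was lost without PTU mouse 12 (0.19), PTU+TH mouse 15 (0.114) or PTU+TH mouse 16 (0.0556), and without both mice 15 and 16 (0.126). The endothelium slope was called in 2 of the 8 fits, those without PTU mouse 9 or 11, and had adjusted p-values from 0.0627 to 0.176 in the others and of 0.359 without both mice 15 and 16. Over the 14 alternatives the slopes of Dio2 were 1.48 to 1.72 on the astrocyte, 1.05 to 1.30 on the excitatory and 0.72 to 1.17 on the endothelium markers.

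Crym had a slope of 1.05 (SE 0.20) on the excitatory neuron markers (edgeR adjusted p = 0.0391). It was called in 3 of the 8 fits with a library left out, those without PTU mouse 10 and PTU+TH mice 13 and 14, and reached an adjusted p of 0.346 without PTU mouse 12. It was not called without both mice 15 and 16 (0.118), and over the 14 alternatives the slope was 0.97 to 1.21. Its slopes on the astrocyte and endothelium markers were 1.26 and 0.65 (edgeR adjusted p = 0.0685 and 0.247). The endothelium slope was called without PTU mouse 9 (0.00796) and the astrocyte slope without PTU+TH mouse 14 (0.0329), with library totals only (0.0495) and without a filter (0.0273). Slc16a10 and Slc7a8 had slopes from -0.18 to -0.04 on the 3 lists, and none was called (edgeR adjusted p from 0.395 to 0.883). The marker lists were high in largely the same mice, so the 3 slopes of a gene cannot be told apart.

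**Figure D3:**
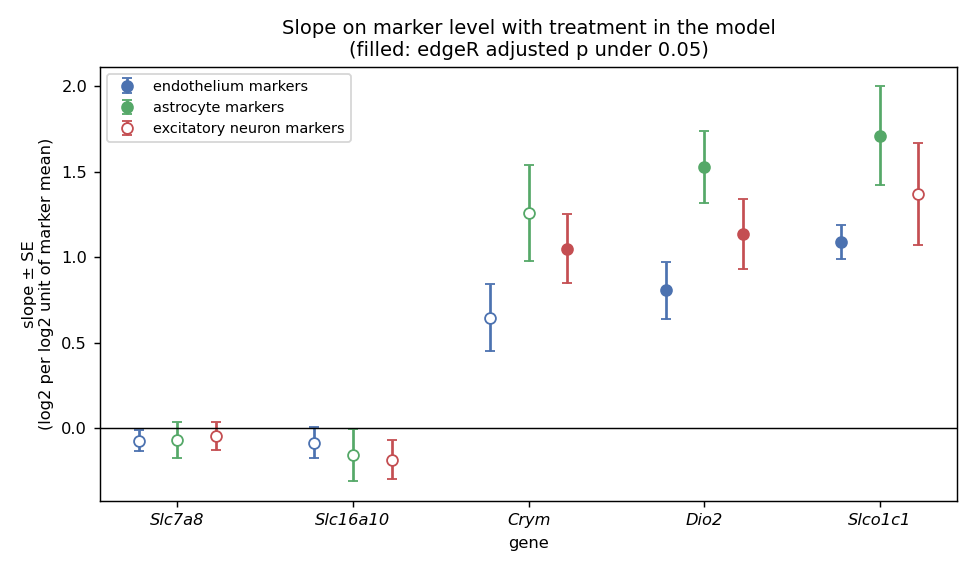
Slope ± SE (y axis, log2 per log2 unit of marker mean) of the 5 tested members (x axis) on 3 marker lists, with treatment in the model. Filled points had an edgeR adjusted p under 0.05. Slco1c1 on the endothelium markers has the smallest error relative to its slope, and Slc7a8 and Slc16a10 lie near 0.

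With a marker list as a covariate, the difference between PTU+TH and PTU was still not called for any of the 5 genes. With the astrocyte markers in the model, the log2 fold change of Dio2 became -0.75 (edgeR adjusted p = 0.0626), that of Slco1c1 -0.94 (0.106) and that of Crym -0.46 (0.461). That list includes Ntsr2, which itself differed between the groups (log2 fold change 1.46, edgeR adjusted p = 0.0358). Without Ntsr2 in the list, an alternative chosen after its value was seen, the values were -0.53 for Dio2, -0.69 for Slco1c1 and -0.27 for Crym (edgeR adjusted p = 0.21, 0.242 and 0.725). With the endothelium markers they were -0.30, -0.36 and -0.14, and with the excitatory neuron markers -0.35, -0.54 and -0.13.

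**Figure D4:**
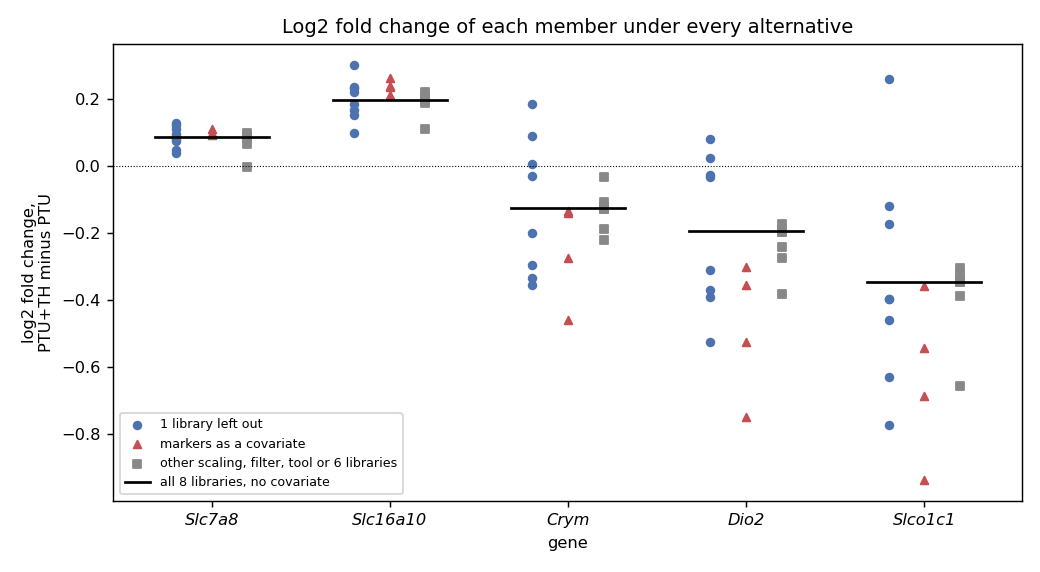
Log2 fold change (PTU+TH minus PTU, y axis) of the 5 tested members (x axis) with all 8 libraries (line) and under each alternative (points). Slc16a10 stays above 0 throughout, Slc7a8 stays above 0 except without mice 15 and 16, and the other 3 genes cross 0 when single libraries are left out.

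The genes most like each member were sought by Pearson's r of log2 CPM over the 8 libraries, among 12783 genes whose mean level reached 1 CPM. With so many genes and 8 libraries high values arise easily, and they are given as a description. For Slco1c1 these were Klf2 (r = 0.98, Spearman's rho = 0.98), Msn (0.97 and 0.93) and Plxnd1 (0.97 and 0.95). For Dio2 they were Lrp4 (0.98 and 0.95), Bcl6b (0.98 and 0.86) and Cachd1 (0.97 and 0.90). For Crym they were Crip2 (0.99 and 0.98), Fgfr1op2 (0.98 and 0.95) and Slc39a10 (0.98 and 0.95). For Slc16a10 they were Bend6 (0.98 and 0.90), Rab27a (0.97 and 0.98) and Desi2 (0.97 and 0.90), and for Slc7a8 they were Eya1 (0.94 and 0.90), Has3 (0.93 and 0.90) and Vmn2r84 (0.92 and 0.81). Of the 10 endothelium markers, 9 were among the 5% of genes most like Slco1c1, 7 among the 5% most like Dio2 and 5 among the 5% most like Crym. Of the 6 excitatory neuron markers, 4 were among the 5% most like each of these 3 genes. Of the 5 mural cell markers, the counts were 5 for Slco1c1, 4 for Dio2 and 1 for Crym. Of 9 astrocyte markers compared, the counts were 4 for Slco1c1, 4 for Dio2 and 2 for Crym. Of 2 oligodendrocyte precursor markers compared, they were 2 for Slco1c1, 2 for Dio2 and 1 for Crym. Of 6 oligodendrocyte markers compared, they were 0 for Slco1c1, 2 for Dio2 and 2 for Crym. On the microglia and striatal projection neuron lists they were 0 or 1. For Slc16a10 and Slc7a8 the counts were 0 on the endothelium, excitatory, mural, oligodendrocyte and oligodendrocyte precursor lists and 1 each on the astrocyte list.

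Other genes of the pathway were taken from lists. Of 16 further genes of TH transport and binding, 13 were tested, 7 with a positive and 6 with a negative log2 fold change, and 0 were called in either direction (median 0.01). The lowest unadjusted p of this list was that of the amino acid transporter Slc43a1, with 0.25 ± 0.24 and 0.52 ± 0.08 CPM (SD, n = 4 each). Its log2 fold change was 1.08 (SE 0.68, edgeR adjusted p = 0.588), and it had 0 to 13 counts per library. The value was 0.67 without PTU mouse 12, 1.72 without PTU mouse 11 and 1.77 with limma voom.

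Slco1a4 and Slco2b1, further organic anion transporters, were named after their values were seen. Of the 13 tested genes of the transport list, these 2 had a called slope on the endothelium markers, and 0 of the 13 had a called slope on the astrocyte or the excitatory neuron markers. Over all genes the shares called were 0.956% on the endothelium, 0.628% on the astrocyte and 0.72% on the excitatory neuron markers. At the last 2 shares, 0 of 13 says little about these genes. Slco1a4 lies on the same chromosome as Slco1c1 (chromosome 6, 141805440 to 141856199). It stood at 2.00, 13.0, 3.22 and 0.83 CPM in PTU mice 9 to 12 and at 8.85, 2.65, 7.36 and 3.38 CPM in PTU+TH mice 13 to 16. It was highest in mouse 10, as Slco1c1 was, but mouse 9 was among the high libraries of Slco1c1 and among the low libraries of Slco1a4. Its slope on the endothelium markers was 1.44 (SE 0.18, edgeR adjusted p = 0.000636), and the call was lost without PTU mouse 10 (0.17). For Slco2b1, of whose body 54.4% is free of other genes, the slope was 1.15 (SE 0.22, edgeR adjusted p = 0.0201), and the call was lost without PTU mouse 10 or 12, without PTU+TH mouse 14 or 15 (adjusted p up to 0.305) and without mice 15 and 16 together (0.229). On the astrocyte and excitatory neuron markers the slopes were 1.99 and 1.53 for Slco1a4 (edgeR adjusted p = 0.281 and 0.272) and 1.70 and 1.53 for Slco2b1 (0.159 and 0.0903). Without PTU mouse 9 those of Slco1a4 were both called (0.0452 and 0.0319), and the excitatory slope of Slco2b1 was called there (0.0164) and with library totals only (0.0386). The relation of these 2 genes to the 3 lists cannot be told apart either. Neither gene was called different between the groups (log2 fold change 0.21 and 0.07, edgeR adjusted p = 0.963 and 0.986). The sign of each turned when single libraries were left out, and without PTU mouse 10 the values were 1.47 and 0.77.

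Genes of TH metabolism and deiodinase turnover numbered 8, of which 5 were tested and 0 called (median log2 fold change -0.00078). Dio1, the deiodinase of liver and kidney, had 2 counts in PTU mouse 12 and 0 in the other 7 libraries. March6, a ubiquitin ligase known to act on Dio2 protein, had the lowest unadjusted p, at 123 ± 2.94 and 131 ± 5.73 CPM (SD, n = 4 each). Its log2 fold change was 0.10 (edgeR adjusted p = 0.698). Of 5 genes for the synthesis of selenoproteins, the class to which the deiodinases belong, 4 were tested and 0 called (median 0.10). Sepsecs, which makes the selenocysteine carried by its tRNA, came closest, at 29.3 ± 2.98 and 33.5 ± 1.87 CPM (SD, n = 4 each), a log2 fold change of 0.19 (SE 0.10, edgeR adjusted p = 0.497).

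Dio3 lies in an imprinted domain whose noncoding RNAs are made from the maternal chromosome. Of 6 genes listed from this domain, 4 were tested, all 4 had a negative log2 fold change and 0 were called (median -0.05). Each of the 4 values was smaller in size than its SE, and the median over all tested genes was -0.01. Mirg had the lowest unadjusted p, with 204 ± 42.9 and 186 ± 22.8 CPM (SD, n = 4 each), a log2 fold change of -0.13 (SE 0.15, edgeR adjusted p = 0.81). It was -0.25 without PTU mouse 9, -0.01 without PTU mouse 11 and -0.06 without PTU+TH mouse 15, and it turned to 0.0032 without mice 15 and 16 together and to 0.0012 with the astrocyte markers as a covariate. Meg3 reached 14529 ± 2915 CPM in PTU (SD, n = 4), while Dio3os, next to Dio3, had 5 counts in PTU+TH mouse 15 and 0 in the other 7 libraries. RNA from this domain was abundant at Meg3 and close to the limit of detection at Dio3 and Dio3os in the same libraries.

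**Figure D5:**
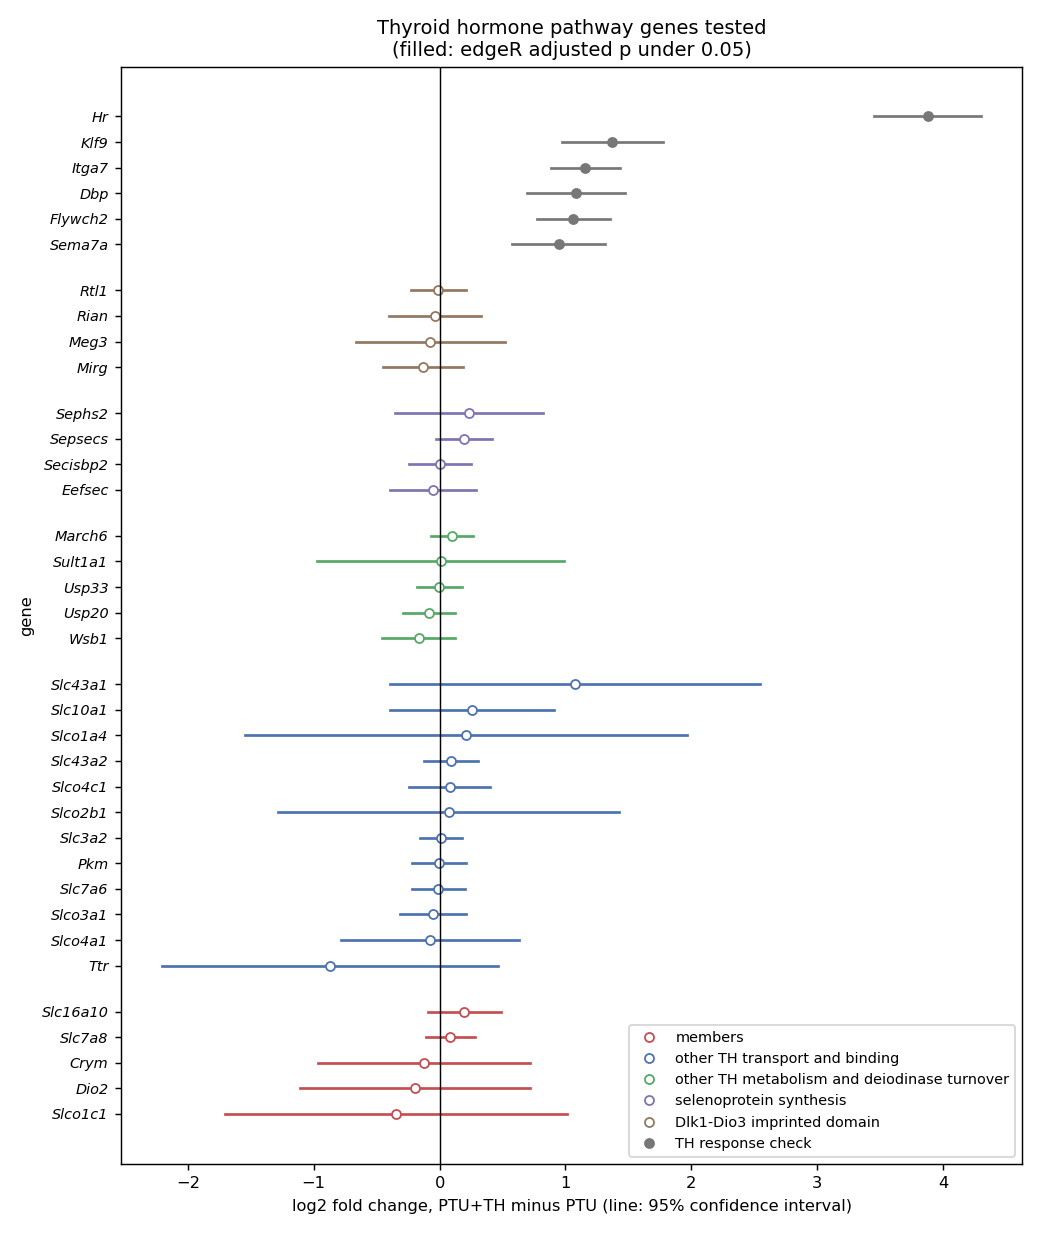
Log2 fold change (PTU+TH minus PTU, x axis) with its 95% confidence interval for tested genes (y axis) of the members, 4 pathway lists and the list of TH-responsive genes. Filled points had an edgeR adjusted p under 0.05, which holds for the 6 TH-responsive genes and for none of the others.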

How the data were processed

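The authors deposited 1 table of raw read counts by gene symbol for each mouse. Libraries were made with SMART-Seq v4 and Nextera XT and read from a single end, per the labels' protocols. Bowtie2 2.5.3 and the builds mm10 and GRCm38 are named in the submitters' processing notes. The counting program, annotation, strand and intron settings are not given in the sources used here. The 55341 symbols equal those of GENCODE M21 (GRCm38), which gave positions. Each file held 0 rows without a gene. Chi-square per degree of freedom was 8.38 to 72.6 over 12 pairs within groups, so no library was a copy.

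The main test was the robust quasi-likelihood test of edgeR 4.0.16 (R 4.3.3) after filterByExpr and TMM scaling, with treatment alone in the model. Tests were two-sided, with Benjamini-Hochberg adjustment over 17355 genes and a call under 0.05. Alternatives used DESeq2 1.42.0, limma 3.58.1 (voom), other scalings and filters, marker covariates and fewer libraries. Log2 CPM used a prior count of 2. Fits were checked on simulated data. Library totals were 21762810 to 29084071 counts. Standard errors and p-values rest on the spread between mice, and floors (3 counts) cover counting error only. The edgeR standard errors are the size of the log2 fold change over the square root of the F statistic of its test. Members, lists and tests were chosen with earlier results of these data known. Named genes were the members, the 3 genes most like each, and the lowest unadjusted p of each list. Slc3a2, Slco1a4, Slco2b1, Ntsr2, Dio1, Meg3 and Dio3os were named after their values were seen. The result of 1 gene of the transport list is not reported here.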

Additional observations from a re-analysis of the deposited data

Results flagged for a closer look

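A search for a mouse standing apart from its group covered 45 sets of 4 values: the members, 8 other genes and the summed markers of 9 cell types. It found 1 set, where chance gives about 5% or 2.25 sets. The summed GABAergic markers of PTU mouse 9 stood at 1227 CPM against 1118 to 1128 CPM in the other 3 PTU mice, a gap of 0.908 of the range. No library stood apart in this way for any of the members.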

How the results depend on the processing

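No member and no gene of the other pathway lists was called under any of the 20 alternatives run. Against 368 called genes in all, the count was 723 with DESeq2 and 573 with the excitatory neuron markers as a covariate. It was 58 without PTU+TH mice 15 and 16, and 182 to 499 with a library left out. The cause of these shifts was not tested. Leaving out mice 15 and 16 both lowers the number of mice and removes the libraries without Y-linked counts. These cannot be told apart. With a library left out, the log2 fold change ranged from -0.53 to 0.082 for Dio2, -0.77 to 0.26 for Slco1c1, -0.36 to 0.19 for Crym, 0.04 to 0.13 for Slc7a8, 0.10 to 0.30 for Slc16a10, -0.016 to 0.034 for Slc3a2, -0.14 to 1.47 for Slco1a4 and -0.39 to 0.77 for Slco2b1. Without mice 15 and 16 together Slc7a8 turned to -0.0017, Mirg to 0.0032 and Slco2b1 to -0.53. With the astrocyte markers as a covariate Mirg turned to 0.0012, Slc3a2 to -0.019, Slco1a4 to -0.34 and Slco2b1 to -0.43, and without Ntsr2 in that list Slc3a2 was -0.0063, Slco1a4 -0.056 and Slco2b1 -0.19. Slco2b1 was -0.047 with the excitatory neuron markers, and Slc3a2 was -0.013 with library totals only. For these turns the cause was not tested. Among slopes that were never called, that of Slc7a8 was 0.070 on the astrocyte and 0.068 on the excitatory markers with library totals only. With a library left out it ranged from -0.084 to 0.023 on the excitatory markers, and that of Slc16a10 on the endothelium markers from -0.13 to 0.0048. No paired analysis was possible because no replicate number occurs in both groups. Depth limits Dio3, with at most 4 counts per library, while Dio2 and Crym had 50 to 221 counts and a large spread between mice.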
